A study of Mus musculus with 6 samples.

Results

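The outer segment of a photoreceptor is a stack of membrane discs. Genes of its discs and axoneme, and of related actin, transport and matrix, were followed in the retina of saline- and microbead-injected mice. The 9 genes are *Prph2*, *Rom1*, *Prom1*, *Cdhr1*, *Rp1*, *Rp1l1*, *Fscn2*, *Tulp1* and *Impg2*. They were chosen by name, as disc, rim, adhesion and axoneme genes, from the 31169 genes of the deposited table, and each matched 1 row. Of the 9, 2 were lower after microbead injection: *Prom1* (log2 fold change -0.88, edgeR quasi-likelihood test, adjusted p = 0.0222) and *Rp1l1* (-0.85, adjusted p = 0.0248 from edgeR). The other 7 did not pass the test, among them *Prph2* and *Rom1*, the rim proteins that were the most abundant of the group. *Tulp1* was the only member with a positive fold change (0.21, adjusted p = 0.449 from edgeR).

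Photoreceptors renew their outer segments throughout life by adding discs at the base, while the pigment epithelium removes them at the tip. Each disc is a flat sac whose tightly curved edge, the rim, is held by the tetraspanins peripherin-2 (*Prph2*) and ROM1. New discs form as outgrowths of the plasma membrane above the connecting cilium, where prominin-1 and the photoreceptor cadherin (*Cdhr1*) are found, and the stack is aligned along a microtubule axoneme that carries RP1 and RP1L1. Mutations in most of these genes cause inherited retinal degeneration in humans.

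RNA of whole retina was sequenced from 2 groups of C57BL/6 mice, with 3 libraries in each. The study names more retinas per group than the libraries analysed here. Mice were injected into the anterior chamber at 1 month of age with saline or with 15 μm microbeads, which raise intraocular pressure (IOP), and the retina was taken 4 weeks later, at 2 months of age. Both groups were thus injected, per the study's methods in both eyes, and no library of an uninjected retina was analysed here. The labels do not say whether each library came from a separate animal, so p-values measure the spread between these libraries only.

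The libraries held 13574949 to 19834366 counts after microbead and 36085737 to 46481382 after saline injection, and the smallest count of any member in any library was 1658, so that the spread between libraries and not the depth set the error. The library names in the sample descriptions form 1 series for saline and another for microbead, whereas the sample titles run on in a single series over both groups. Whether the groups were prepared or sequenced apart is not given in the sources used here, and such an effect could not be told apart from that of the microbeads. The share of counts on the mitochondrial genome was 3.19 to 3.57% in saline and 8.90 to 10.6% in microbead libraries. Not every mitochondrial gene followed this share. *mt-Co3* was at 56.1, 38.3 and 62.9 CPM (counts per 1000000) after saline and 5.66, 5.49 and 9.35 CPM after microbead injection. Its log2 fold change from edgeR was -2.94, and that of *mt-Atp6* was -2.97. The source of these differences was not tested. Photoreceptor markers were abundant in every library: the 16 rod markers summed to 75385 to 98873 counts per 1000000 (CPM, on library sizes scaled by edgeR's TMM method) after saline and 69299 to 83501 CPM after microbead injection. Saline libraries differed in markers of neighbouring cells. The 10 retinal ganglion cell (RGC) markers summed to 379 CPM in saline replicate 1 and to as much as 1400 CPM in another saline library, against 939 to 1288 CPM in microbead libraries, and the 8 pigment epithelium markers to 12.5 CPM in saline replicate 1 and 247 CPM in saline replicate 3, against 107 to 127 CPM. The part of these differences in the results below was not tested, and calls that are lost without 1 library are given with the genes named.

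Promoter sequences are shown for 5 members, so that they can be read side by side. They are the rim pair and the member with the largest change (*Prom1*). The others are the member next in size after the called ones (*Impg2*) and the one with a positive value (*Tulp1*). A link between promoter letters and fold changes was not tested. Each line gives the 250 bases before the RefSeq start of the gene (GRCm38.p6), 5′ to 3′ on the gene's strand, in lower case, with capitals for the letters TAATC on either strand, the core bound by homeodomain factors of the OTX class, to which the photoreceptor factor CRX belongs. For *Prom1* it is the second of 2 RefSeq starts, since the window before the first lies within an annotated exon. The second start and its window lie inside the gene, which runs from 43993620 to 44102032 on the reverse strand. By GENCODE, 19 bases of the *Prph2* window and 6 of the *Tulp1* window are exonic as well.

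Prph2, chr17:46910228-46910477, forward strand: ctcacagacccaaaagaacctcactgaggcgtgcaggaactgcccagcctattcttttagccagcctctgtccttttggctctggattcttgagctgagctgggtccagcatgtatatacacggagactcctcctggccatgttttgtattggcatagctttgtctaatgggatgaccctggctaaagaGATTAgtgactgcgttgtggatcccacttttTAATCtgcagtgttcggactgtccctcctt

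Rom1, chr19:8929357-8929606, reverse strand: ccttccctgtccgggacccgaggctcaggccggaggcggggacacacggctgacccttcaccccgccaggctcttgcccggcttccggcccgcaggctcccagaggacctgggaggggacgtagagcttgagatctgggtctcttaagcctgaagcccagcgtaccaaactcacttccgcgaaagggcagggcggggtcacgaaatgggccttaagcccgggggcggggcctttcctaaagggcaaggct

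Prom1, chr5:44094769-44095018, reverse strand: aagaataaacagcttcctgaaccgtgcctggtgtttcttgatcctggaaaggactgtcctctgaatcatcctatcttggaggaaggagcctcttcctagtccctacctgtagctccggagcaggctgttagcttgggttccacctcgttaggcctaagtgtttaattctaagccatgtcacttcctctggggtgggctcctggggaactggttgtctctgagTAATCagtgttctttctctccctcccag

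Impg2, chr16:56204063-56204312, forward strand: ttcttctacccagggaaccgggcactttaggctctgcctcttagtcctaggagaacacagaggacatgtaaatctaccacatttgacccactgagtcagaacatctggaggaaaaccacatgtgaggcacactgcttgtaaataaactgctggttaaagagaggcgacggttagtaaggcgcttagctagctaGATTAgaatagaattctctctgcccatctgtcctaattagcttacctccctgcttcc

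Tulp1, chr17:28365217-28365466, reverse strand: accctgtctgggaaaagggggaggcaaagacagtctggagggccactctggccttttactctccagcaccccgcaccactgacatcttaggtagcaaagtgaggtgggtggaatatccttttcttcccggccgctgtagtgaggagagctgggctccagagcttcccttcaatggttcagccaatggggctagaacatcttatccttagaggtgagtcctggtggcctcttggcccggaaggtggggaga

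RefSeq promoters were matched for 7 of the 9 members. TAATC, or its complement GATTA, occurred 2 times in the window of *Prph2*, 30 and 61 bases before the start, and 1 time each in those of *Impg2* (57 bases before the start) and of the second start of *Prom1* (28 bases before it). The windows of *Rom1*, *Tulp1*, *Cdhr1* and *Fscn2*, and that of the first start of *Prom1*, did not hold it. Of all 32851 promoters of this length, 19.8% did. Which start of *Prom1* the retina uses was not measured. The longer form TAATCC, which contains TAATC and was found in 6.25% of all promoters, and TGCTGA, part of the site of NRL and other MAF factors, found in 16.1%, occurred on neither strand in any window of the 7 members. These are matches of letters only.

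*Prph2* encodes peripherin-2, without which discs do not form. The gene (ENSMUSG00000023978.5) lies on the forward strand of chromosome 17 from 46910459 to 46924933 (GRCm38, GENCODE vM21), and its principal transcript has 3 exons and encodes 346 amino acids. Its level was 5942, 5545 and 7289 CPM after saline and 4845, 3395 and 4593 CPM after microbead injection, so that every microbead library was below every saline library. The means were 6259 ± 914 and 4277 ± 775 CPM (SD, n = 3 each). The log2 fold change was -0.55 (standard error 0.21, 95% interval -1.02 to -0.08), which did not pass the test over all genes (adjusted p = 0.110 from edgeR). Only 8 of the 17707 tested genes were more abundant, since *Prph2* ranked 9.

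*Rom1*, whose product forms complexes with peripherin-2 at the rim, is on the reverse strand of chromosome 19 from 8927391 to 8929356 (ENSMUSG00000071648.3) and also has 3 exons in its transcript, which encodes 351 amino acids. Its values were 2815, 2534 and 3661 CPM after saline and 2779, 2007 and 2566 CPM after microbead injection. The groups overlapped. The log2 fold change was -0.29 (95% interval -0.77 to 0.18, adjusted p = 0.379 from edgeR), and it was -0.13 without saline replicate 3, the library with the highest value. In CPM per kilobase of exon, a scale on which genes can be compared, both tetraspanins had similar means. These were 2085 ± 304.5 for *Prph2* and 1980 ± 387 for *Rom1* after saline, and 1425 ± 258 and 1616 ± 263 after microbead injection (SD, n = 3 each). The SDs are between libraries. Both genes were measured in the same libraries, so the SDs do not give the spread of the difference between them.

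**Figure D1:**
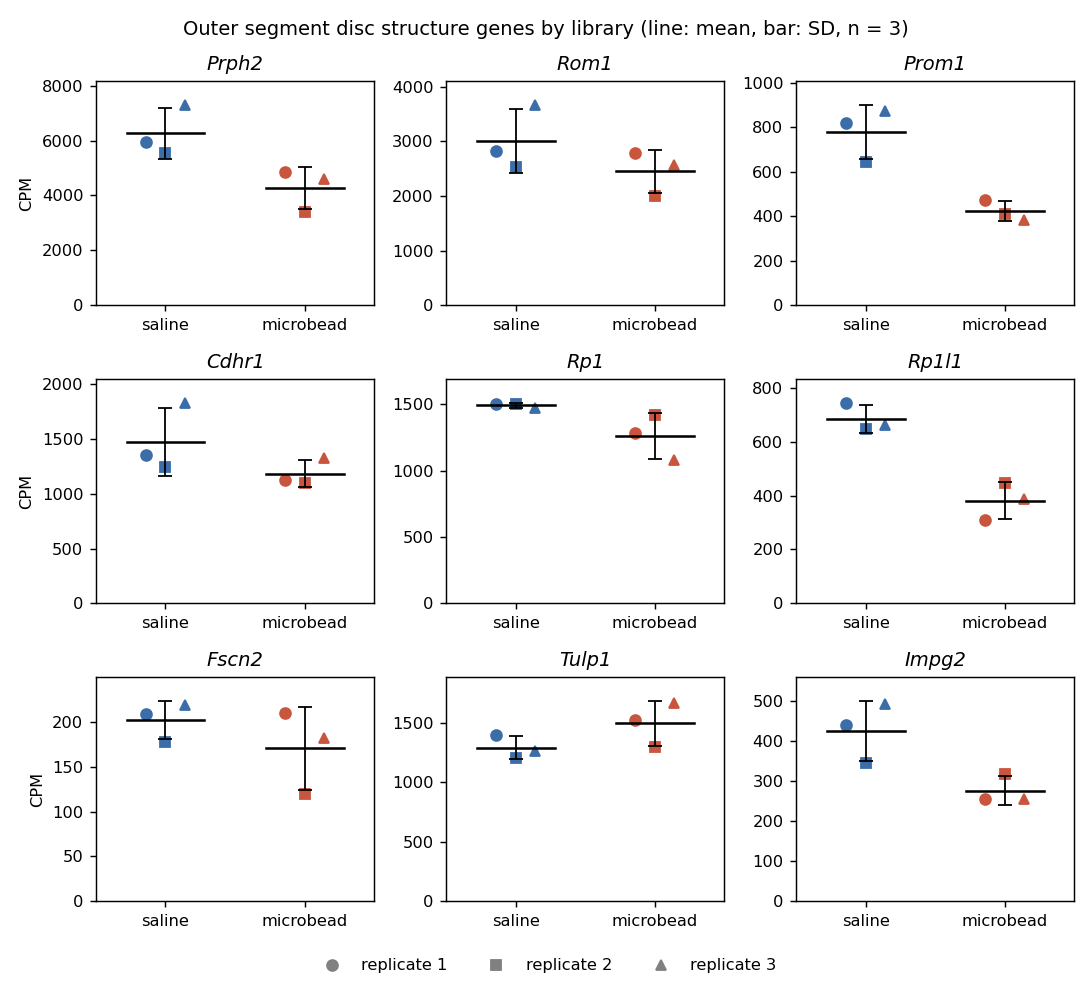
Level of each of the 9 genes in CPM (vertical axis, starting at 0) in the 3 saline (blue) and 3 microbead (red) libraries, with marker shape for the replicate, a line for the mean and a bar for the SD. The groups do not overlap for *Prph2*, *Prom1*, *Rp1*, *Rp1l1* and *Impg2*, and overlap for *Rom1*, *Cdhr1*, *Fscn2* and *Tulp1*.

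The balance of the pair within a library does not depend on how libraries are scaled. There were 2.11, 2.19 and 1.99 counts of *Prph2* for each count of *Rom1* in saline libraries, and 1.74, 1.69 and 1.79 in microbead libraries. The mean log2 ratio of counts was 1.07 ± 0.07 after saline and 0.80 ± 0.04 after microbead injection (SD, n = 3 each), a difference of -0.27 with no overlap (exact permutation test, two-sided, p = 0.1, which is the smallest value possible for 3 libraries against 3). Leaving out any single library kept the difference between -0.30 and -0.24. Thus *Prph2* counts were lower relative to *Rom1* in each microbead library, by less than the differences found for the pairs described next.

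*Prom1* encodes prominin-1, a membrane protein of protrusions that in photoreceptors marks the base of the outer segment, where new discs open to the outside. It is not specific to photoreceptors. The gene (ENSMUSG00000029086.15) lies on the reverse strand of chromosome 5 from 43993620 to 44102032, and 19 transcripts are annotated, 12 of them coding. It was at 820, 642 and 874 CPM in saline-injected and 474, 410 and 385 CPM in microbead-injected retinas, with the highest microbead value well below the lowest saline value. The fall from 779 ± 121 to 423 ± 45.6 CPM (SD, n = 3 each) gave a log2 fold change of -0.88 (standard error 0.19, 95% interval -1.30 to -0.46, adjusted p = 0.0222 from edgeR), a level 0.543 times that of saline retinas. In whole retina, fewer cells of a type and less RNA in each cell cannot be told apart. Of 10 markers of Müller glia, which span the retina, 3 were also lower, beside 6.31% of all tested genes. None of the 3 kept the call in every fit with 1 library left out. All 10 were detected in every library, in sum at 6876 to 10381 CPM after saline and 5366 to 6709 CPM after microbead injection, and their part in the values of *Prom1* was not tested. The call rested on single libraries: the adjusted p from edgeR was 0.0539 without saline replicate 2, 0.0730 without microbead replicate 2 and 0.105 without microbead replicate 3, while the log2 fold change stayed between -1.005 and -0.79. An antisense gene, *Gm16401*, shares 424 exon bases with *Prom1*, but its own count was at most 167 in any library.

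*Cdhr1*, the photoreceptor cadherin that links the edges of nascent discs to the inner segment, was at 1350, 1246 and 1828 CPM after saline and 1128, 1095 and 1328 CPM after microbead injection. The gene (ENSMUSG00000021803.9, chromosome 14 from 37077857 to 37098347, reverse strand) has a single annotated transcript, of 17 exons. Its groups overlapped, through microbead replicate 3, which was above saline replicate 2. The log2 fold change was -0.32 (95% interval -0.77 to 0.14, adjusted p = 0.314 from edgeR), and -0.13 without saline replicate 3. Set against *Prom1*, its neighbour at the base of the outer segment, *Cdhr1* had 1.65, 1.94 and 2.09 counts for each count in saline libraries and 2.38, 2.67 and 3.45 in microbead libraries. The log2 ratio was thus higher by 0.57 in microbead libraries, without overlap (two-sided exact permutation test, p = 0.1), and by 0.42 without microbead replicate 3.

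*Rp1* and *Rp1l1* encode related microtubule-binding proteins with doublecortin domains, both located along the axoneme of the outer segment. *Rp1* (ENSMUSG00000025900.12, chromosome 1 from 3999557 to 4409241, reverse strand) was at 1500, 1502 and 1471 CPM in saline-injected retinas, the smallest spread of any member with a coefficient of variation of 1.16%. After microbead injection it was at 1286, 1420 and 1077 CPM. Although every microbead value was lower, the log2 fold change was only -0.24 (95% interval -0.64 to 0.15, adjusted p = 0.381 from edgeR).

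*Rp1l1* (ENSMUSG00000046049.6) lies on the forward strand of chromosome 14 from 63992506 to 64035025, and its coding transcript has 4 exons and encodes 1859 amino acids. Its level was 743, 647 and 663 CPM after saline and 308, 447 and 387 CPM after microbead injection, again without overlap. Its mean fell from 684 ± 51.1 to 381 ± 69.5 CPM (SD, n = 3 each), a log2 fold change of -0.85 (standard error 0.19, 95% interval -1.27 to -0.42, adjusted p = 0.0248 from edgeR) and a level 0.556 times that of saline retinas. Without saline replicate 2, microbead replicate 1 or microbead replicate 3 the adjusted p from edgeR was 0.0797, 0.0582 and 0.104, and the log2 fold change stayed between -0.96 and -0.72 over all libraries left out. There were 2.02, 2.32 and 2.22 counts of *Rp1* for each count of *Rp1l1* in saline libraries and 4.17, 3.18 and 2.78 in microbead libraries. The difference of the log2 ratio was 0.61, without overlap (two-sided exact permutation test, p = 0.1), and was lowest, at 0.45, without microbead replicate 1. The adjusted p was 0.1 for each of the 3 pairs (Benjamini-Hochberg over exact permutation tests). The ratios to *Rp1l1* and to *Prom1* contain the called members, so they partly restate those fold changes and are not separate support for them.

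**Figure D2:**
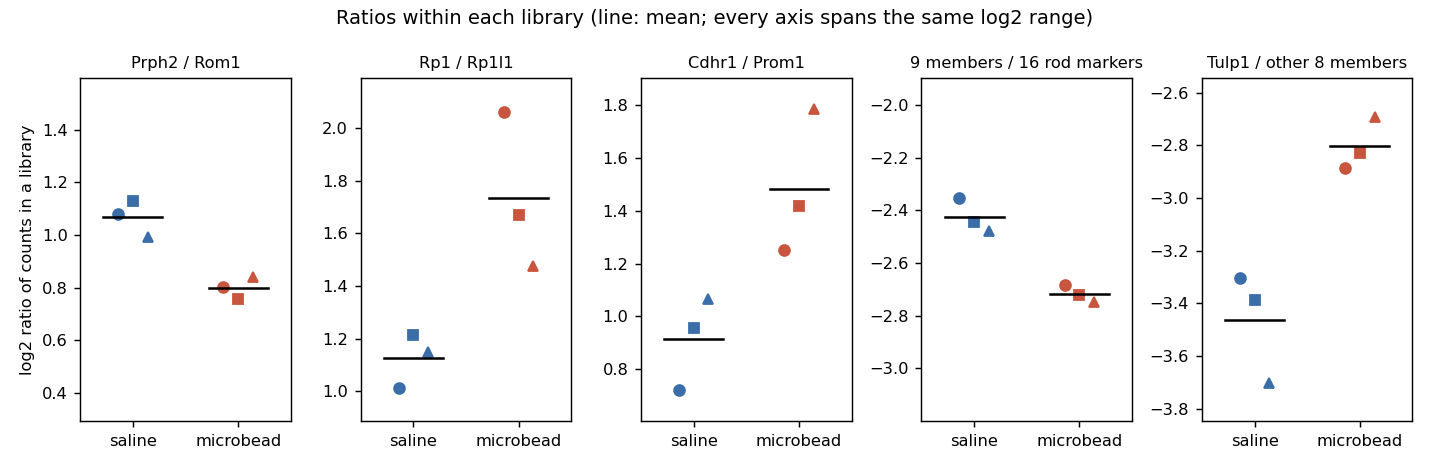
Log2 ratio of counts within each library (vertical axes, each spanning the same log2 range) for the 3 pairs of members, for the summed members against the summed rod markers, and for *Tulp1* against the other 8 members. Points are libraries and lines are means of 3. In each panel the saline and microbead libraries are separate, with *Prph2* to *Rom1* and members to rod markers lower, and the other ratios higher, after microbead injection.

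The remaining members stand for actin, transport and matrix. *Fscn2*, the photoreceptor fascin that bundles actin filaments, was the least abundant member in CPM (ENSMUSG00000025380.2, chromosome 11 from 120361534 to 120368168, forward strand). It was at 209, 178 and 219 CPM after saline and 209, 120 and 182 CPM after microbead injection. The groups overlapped, and the log2 fold change of -0.24 (95% interval -0.74 to 0.25, adjusted p = 0.489 from edgeR) became -0.03 without microbead replicate 2, the lowest library.

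*Impg2* encodes a proteoglycan of the interphotoreceptor matrix, the material in which outer segments are embedded (ENSMUSG00000035270.15, chromosome 16 from 56204313 to 56273756, forward strand). Values of 439, 345 and 492 CPM in saline-injected and 256, 317 and 254 CPM in microbead-injected retinas did not overlap. The log2 fold change was -0.62 (standard error 0.19, 95% interval -1.06 to -0.19), the largest in size among members not past the threshold (adjusted p = 0.0624 from edgeR). With DESeq2, the tool of the study, the adjusted p was 0.0223, and without the filter on low counts it was 0.0298 from edgeR. *Impg2* passed only in these 2 of 10 fits with all libraries, and its adjusted p was 0.1155 with the replicate number as a block (edgeR). With 1 library left out it passed in 0 of 6 fits (edgeR, adjusted p from 0.0932 to 0.191).

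*Tulp1*, a tubby-like protein needed to carry rhodopsin and other proteins to the outer segment, had the opposite sign (ENSMUSG00000037446.13, chromosome 17 from 28351515 to 28365222, reverse strand). It was at 1400, 1207 and 1268 CPM after saline and 1528, 1296 and 1667 CPM after microbead injection. Microbead replicate 2 lay among the saline libraries, and the log2 fold change of 0.21 (95% interval -0.19 to 0.61) did not pass the test. Relative to the other 8 members, its log2 ratio of counts was -3.46 ± 0.21 in saline and -2.80 ± 0.10 in microbead libraries (SD, n = 3 each), a difference of 0.66 without overlap (two-sided exact permutation test, p = 0.1). This ratio was chosen after the members' values were seen. *Tulp1* made up 8.35 ± 1.08% of the members' counts after saline and 12.55 ± 0.7625% after microbead injection (SD, n = 3 each), and *Prph2* 40.0 ± 0.991% and 35.7 ± 2.95%.

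**Figure D3:**
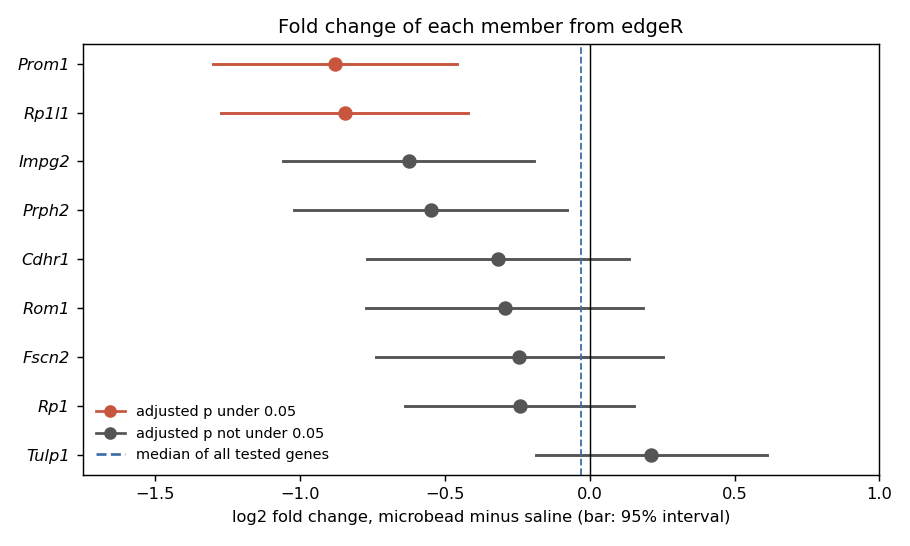
Log2 fold change of each member, microbead minus saline (horizontal axis), from edgeR with its 95% interval, in order of size. *Prom1* and *Rp1l1* (red) passed the adjusted threshold. The dashed line is the median of all 17707 tested genes, -0.03.

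Over the 9 genes, 8 fold changes were negative and 1 was positive, with a median of -0.32 against -0.03 over all tested genes. The 2 members past the threshold stand beside 12.8% of all tested genes, or 6.31% counting only those lower after microbead injection. The groups did not overlap for 5 of the 9, beside 37.8% of all tested genes. All 9 passed the filter on low counts. The members sum to 15610 ± 1989 CPM in saline-injected and 11920 ± 1237 CPM in microbead-injected retinas (SD, n = 3 each), without overlap (two-sided exact permutation test, p = 0.1). *Prph2* and *Rom1* are the bulk of this sum. Without saline replicate 3, the difference of -3690 CPM became -2664 CPM.

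Levels per exon length kept nearly the same order in both groups. After the tetraspanins came *Cdhr1* at 340 ± 71.7 CPM per kilobase and *Tulp1* at 194 ± 14.8 in saline-injected retinas (SD, n = 3 each). *Rp1* (121 ± 1.41), *Prom1* (108.5 ± 16.9), *Fscn2* (95.6 ± 10.1) and *Rp1l1* (90.4 ± 6.75) followed, and *Impg2* (45.9 ± 8.01) was last. From *Rp1* to *Rp1l1*, each mean differed from the next by less than the larger of their SDs. *Rp1* was farther than that from *Fscn2* and *Rp1l1*. After microbead injection *Rom1* was above *Prph2* in value, *Fscn2* (80.8 ± 21.8) was above *Prom1* (59.0 ± 6.36), and *Rp1l1* (50.3 ± 9.18) and *Impg2* (29.7 ± 3.85) followed. Lengths are those of all annotated exons of a gene, which range from 1517 to 12311 bases in the group, and exons that the retina does not use would lower a value. Their use was not measured. In length and base composition *Prom1* (7175 bases, 45.3% G and C in its principal transcript) and *Rp1l1* (7573 bases, 55.2%) lie within the range of the group, from *Rom1* (1517 bases) to *Rp1*, and from *Impg2* (42.4%) to *Tulp1* (60.5%). None of the 100-base stretches of any member's transcripts occurs in transcripts of another gene (0%), and of 31-base stretches at most 2.17%, in *Tulp1*.

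**Figure D4:**
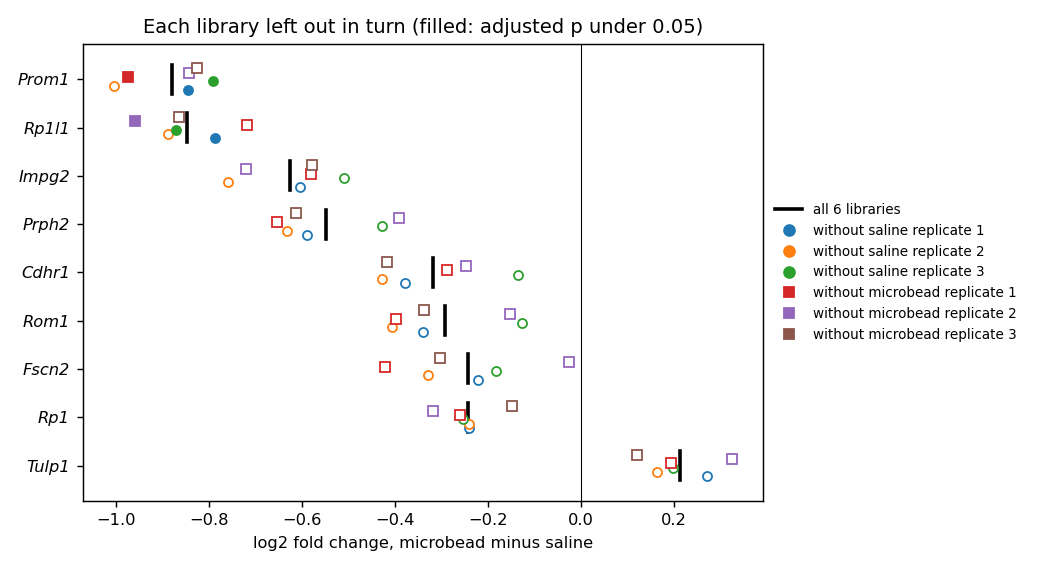
Log2 fold change of each member with all 6 libraries (black line) and with each library left out (points, filled where the adjusted p from edgeR is under 0.05). No member changes sign, and *Prom1* and *Rp1l1* are each filled in 3 of 6 fits.

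To set the members against the photoreceptors that carry them, their summed counts were divided by those of the 16 rod markers, none of which is a member. The log2 ratio was -2.35, -2.44 and -2.48 in saline libraries and -2.68, -2.72 and -2.75 in microbead libraries, a difference of -0.29 without overlap (two-sided exact permutation test, p = 0.1). Rhodopsin alone was at 34909, 35353 and 48644 CPM after saline and 30176, 27199 and 35516 CPM after microbead injection, so it weighs heavily in the rod sum. Against the median rod marker in place of the sum, the difference was -0.56. The rod markers themselves did not move one way: 9 had negative and 7 positive fold changes (median -0.06), with *Nrl*, the transcription factor that sets rod identity, lower (-0.97, adjusted p = 0.0192 from edgeR) and *Pdc*, phosducin, higher (1.01, adjusted p = 0.0362 from edgeR). *Nrl* lost the call without saline replicate 2, microbead replicate 2 or microbead replicate 3 (edgeR, adjusted p = 0.0588, 0.0659 and 0.0883), and *Pdc* kept it only without saline replicate 3, with an adjusted p of up to 0.122 from edgeR in the other 5 fits. Of the 10 cone markers, 1 was higher, *Arr3*, cone arrestin (1.44, adjusted p = 0.0126 from edgeR, and 0.0700 without microbead replicate 3), and 9 did not pass the test. Over all tested genes, 12.8% passed in either direction. Of the rod and cone markers, 5 and 2 passed with DESeq2, and 3 and 1 with limma-voom.

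In lists of genes that work beside the members, the share past the threshold stands beside the 12.8% of all tested genes given above. Of all 17707 tested genes, 3582 passed with DESeq2 and 2210 with limma-voom, and 5564 had an unadjusted p under 0.05 from edgeR. Of 10 other genes of the disc and outer segment membrane, all had negative fold changes (median -0.56, from -1.27 to -0.14) and 1 passed the test, *Atp8a2*, a lipid flippase. It was at 52.9, 58.5 and 59.2 CPM after saline and 13.8, 37.3 and 19.7 CPM after microbead injection (log2 fold change -1.27, adjusted p = 0.0335 from edgeR). In this list 5 genes passed with DESeq2 and 1 with limma-voom, and 6 had an unadjusted p under 0.05 from edgeR. Of 9 genes of the matrix and of adhesion, 6 were negative (median -0.54), and 1 passed, *Egflam*, which encodes pikachurin, an adhesion protein of the photoreceptor synapse. It was at 332, 271 and 395 CPM after saline and 167, 177 and 200 CPM after microbead injection (-0.88, adjusted p = 0.0227 from edgeR). Here 3 genes passed with DESeq2 and 2 with limma-voom, and 4 had an unadjusted p under 0.05 from edgeR. *Impg1*, the partner proteoglycan of *Impg2*, was at 392, 366 and 587 CPM and at 391, 456 and 487 CPM, with a log2 fold change of -0.01.

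Of 15 genes of the connecting cilium and axoneme, 12 had positive fold changes (median 0.22, from -0.43 to 1.02), and 1 passed the test, *Fam161a*, a microtubule-associated protein of the connecting cilium. It was at 219, 174 and 121 CPM after saline and 312, 312 and 306 CPM after microbead injection (0.85, adjusted p = 0.0368 from edgeR). Among these 15 genes 2 passed with DESeq2 and 1 with limma-voom, and 3 had an unadjusted p under 0.05 from edgeR. Only counts and medians of the lists were compared. *Atp8a2*, *Egflam* and *Fam161a* each lost the call without saline replicate 2 (adjusted p from edgeR 0.0894, 0.0538 and 0.117) and without microbead replicate 3 (0.143, 0.0867 and 0.1195), and also in some of the other fits with 1 library left out. Of 11 tested relatives of the members in their gene families, 6 were negative and 5 positive (median -0.04), and 0 passed edgeR's test, against 2 with DESeq2, 0 with limma-voom and 4 at an unadjusted p under 0.05. The largest fold change was that of *Tulp2*, at 24, 20 and 2 counts in saline and 41, 17 and 27 counts in microbead libraries (2.18, adjusted p = 0.0715 from edgeR, and 0.0441 without saline replicate 1). The abundant relatives *Fscn1* (136, 138 and 170 CPM, then 97.7, 96.1 and 127 CPM) and *Tub* (359, 317 and 238 CPM, then 304, 408 and 342 CPM) did not pass either (edgeR, adjusted p = 0.116 and 0.526).

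**Figure D5:**
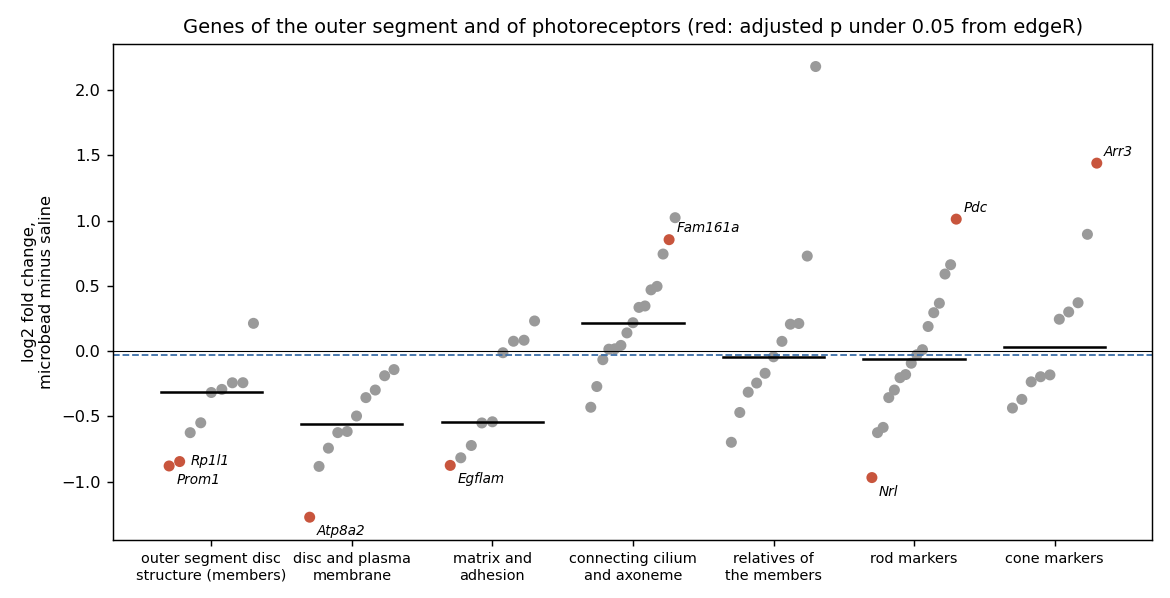
Log2 fold change, microbead minus saline (vertical axis), of every tested gene in the 9 members, in the lists of partner genes and relatives, and in the rod and cone markers. Points are genes (red: adjusted p under 0.05 from edgeR), black lines are list medians, and the dashed line is the median of all tested genes. Disc membrane and matrix genes have medians of -0.56 and -0.54, and connecting cilium genes one of 0.22.

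Among 10350 other genes with a mean of at least 10 CPM, genes whose log2 CPM followed *Prph2* closely over the 6 libraries included *Hspbp1* (Pearson's r = 0.997) and *Pes1* (0.996), and those closest to *Rom1* were *Pkm* (0.989), *Cryz* (0.988) and *Cst3* (0.984). These values are a description: they are the highest of many, the libraries form 2 groups, and all genes share the same library sizes.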

How the data were processed

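Counts per gene and library were deposited by the authors without normalization. Reads had been aligned with STAR 2.5.3a to GRCm38 with GENCODE vM12 and counted with featureCounts 1.15.2, per the labels and methods. How the counting treated strand and reads that map to several places is not given in the sources used here. The authors also deposited the output of their DESeq2 test (mean normalized signal, log2 fold change, linear ratio, p-value, adjusted p-value, mark of a call), none of which was used. The number of per-sample columns left unused is 0.

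After filterByExpr (minimum count of 10, total of at least 15) and TMM scaling, 3 microbead libraries were compared with 3 saline libraries by the two-sided quasi-likelihood test of edgeR 4.0.16 (R 4.3.3), with Benjamini-Hochberg adjustment over 17707 genes and a threshold of 0.05. Standard errors and 95% intervals come from the same fit. Totals ran from 13574949 to 46481382 counts. Sums and ratios were compared by exact permutation. The steps were tested on simulated counts. Positions and exon lengths are from GENCODE vM21, promoters from RefSeq GRCm38.p6. The members and gene lists were chosen with earlier results of these data known, and the ratios with *Tulp1* after their values were seen. Named are all members and, of each list, up to 3 genes past the threshold with the largest change or, where none passed, the largest change, and the 3 genes most like *Prph2* and *Rom1*, of which some results are not reported here. *Impg1*, *Fscn1*, *Tub*, *mt-Co3* and *mt-Atp6* are named outside this rule, chosen after their values were seen. The listed genes *Prcd* and *Cfap410* were not matched by symbol and are not analysed here. As alternatives, scaling by RLE or by the upper quartile was used, library sizes without mitochondrial genes or the 100 most abundant genes, 2 other filters, DESeq2 1.42.0, limma-voom (limma 3.58.1), the replicate number as a block, 2 stricter thresholds, a prior count of 2, the median rod marker, and each library left out.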

Additional observations from a re-analysis of the deposited data

How the results depend on the processing

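No result reversed its direction under any alternative, and all 9 members kept the sign of their fold change. With all 6 libraries, *Prom1* was past the adjusted threshold of 0.05 in each of 10 fits and *Rp1l1* in 9. All genes past the threshold numbered 2261, and 3720 without the filter on low counts, 3582 with DESeq2, 905 with the replicate block, 87 at an adjusted p under 0.01, and 1248 with a change of more than 2-fold. Members past it numbered 2, and 3 without the filter or with DESeq2, where *Impg2* was added. With the replicate block 1 member passed, and the adjusted p of *Rp1l1* was 0.0576 from edgeR. At an adjusted p under 0.01 or with the 2-fold limit, 0 members passed. The partner genes and relatives past it numbered 3, and 12 without the filter, 12 with DESeq2, 0 at an adjusted p under 0.01 and 1 with the 2-fold limit. With 1 library left out, the counts ranged from 46 to 2621 for all genes, from 0 to 2 for the members and from 0 to 7 for the partners. Of the fold changes of single named genes under the alternatives, 330 stayed on their side of the threshold, 79 lost the call and 10 gained it, all in the same direction. The counts were lowest without microbead replicate 3, at 46, 0 and 0, and without saline replicate 2, at 293, 0 and 0.

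The replicate numbers are not shown to pair the retinas: the deviations of same-numbered libraries correlated at -0.035, 0.136 and 0.010, and 2 of 6 libraries correlated best with their own number. For the other members the block changed no call. Of the other genes named, it ended the calls of *Fam161a* (edgeR, adjusted p = 0.0568), *Pdc* (0.0723) and the 7 Müller glia, endothelial and horizontal cell markers (0.0533 to 0.0753). With 3 libraries against 3 an exact test cannot give a p under 0.1, so the sums and ratios could not pass 0.05 at any size of difference.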

Other observations

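Single markers of other retinal cell types passed the test as well, and no list was tested as a group. The counts of called markers stand beside 12.8% of all tested genes, or 6.31% counting only those lower after microbead injection. Of the marker lists described here, endothelial genes had the most called members, 4 of 7 lower (median log2 fold change -0.93), with *Tie1* (-1.23), *Esam* (-1.01) and *Cldn5* (-0.94) past the threshold. *Tie1* and *Cldn5* were past it in only 1 of 6 fits with 1 library left out, the one without saline replicate 1, and *Esam* lost the call without saline replicate 2, microbead replicate 1 or microbead replicate 3 (edgeR, adjusted p = 0.0756, 0.0589 and 0.0971). Among 10 Müller glia markers 3 were lower, *Crym* (-1.41), *Dkk3* (-1.03) and *Vim* (-0.79), and all 10 had negative values. *Crym* lost the call without any 1 of the microbead libraries (adjusted p from edgeR 0.0840 to 0.156), and its log2 fold change was -0.82 without saline replicate 1. *Dkk3* kept the call only without saline replicate 1 or 3, and *Vim* in 0 of 6 such fits (edgeR, adjusted p from 0.0588 to 0.163). Of 4 horizontal cell markers 1 was lower, *Onecut2* (-1.36), a transcription factor, which kept the call only without saline replicate 1 or 3. With all 6 libraries, the adjusted p-values of these 7 genes were between 0.0242 and 0.0438 from edgeR.

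In 4 lists 0 genes passed edgeR's test (10 RGC, 8 bipolar, 7 amacrine and 8 pigment epithelium markers). At an unadjusted p under 0.05 there were 2, 2, 2 and 0, with DESeq2 0, 1, 1 and 0, and with limma-voom 0 in each. Their largest log2 fold changes were those of *Sncg* (1.33), *Pcp2* (0.59), *Gad1* (-0.78) and *Pmel* (0.94) in that order, and *Gad1* passed without saline replicate 1 (edgeR, adjusted p = 0.0155).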
